A study of Mus musculus with 31 samples.

Results

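The type I and type II interferon receptor chains Ifnar1, Ifnar2, Ifngr1 and Ifngr2, the Janus kinases Jak1, Jak2 and Tyk2, and the feedback inhibitors Socs1, Socs3 and Cish were followed through 2 RNA-seq experiments. They were taken by gene name from the microglial count table and by the same Ensembl identifier from the hippocampal table. All 10 were found in both, among 54532 and 48795 listed genes, and all 10 passed the filter on low counts in both. Microglia were grown from the cortices of newborn mouse pups, wild-type (labelled WT, Cgas+/+) or knockout for Cgas (labelled Cgas KO, Cgas-/-), the sensor of cytosolic DNA. Each genotype received vehicle, tau fibrils of the 0N4R isoform at 2 µg/ml, or herring testis DNA (HT-DNA) at 1 µg/ml, and RNA was taken 6 h later, with 3 libraries in each of the 6 groups. These cells had been grown in mixed glial culture with GM-CSF, itself a ligand that signals through Jak2, and were then replated in growth medium before the stimuli. Whole hippocampi came from 7 non-transgenic (Ntg) mice and 6 P301S mice, which express mutant human tau under the prion protein promoter, with both sexes in each group and an age of 8 to 9 months by the labels. The Cgas genotype of these mice was not stated, and neither was the number of pups behind a microglial library.

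Interferons act by bringing receptor chains together: Ifnar1 with Ifnar2 for type I interferons, and Ifngr1 with Ifngr2 for interferon gamma. Tyk2 sits on Ifnar1, Jak1 on Ifnar2 and Ifngr1, and Jak2 on Ifngr2, and once activated these kinases phosphorylate STAT factors, which move to the nucleus and switch on target genes. Socs1, Socs3 and Cish are such targets: Socs1 and Socs3 bind and inhibit the kinases or the receptors, and Cish acts mostly on receptors that use STAT5. In microglia, the resident macrophages of the brain, this circuit sets how strongly interferon made by a cell acts back on it.

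Of the receptor genes, 3 lie close together on the plus strand of chromosome 16 of GRCm38: Ifnar2 (ENSMUSG00000022971) at chr16:91372783-91405589, Ifnar1 (ENSMUSG00000022967) at chr16:91485238-91507441 and Ifngr2 (ENSMUSG00000022965) at chr16:91547072-91565623, with Il10rb between Ifnar2 and Ifnar1. Ifngr1 (ENSMUSG00000020009) is at chr10:19591949-19610229. The kinase genes are at chr4:101152367-101265282 (Jak1, ENSMUSG00000028530), chr19:29251828-29313080 (Jak2, ENSMUSG00000024789) and chr9:21104068-21131243 (Tyk2, ENSMUSG00000032175). Socs1 (ENSMUSG00000038037) is at chr16:10782240-10785536, Socs3 (ENSMUSG00000053113) at chr11:117966079-117970047 and Cish (ENSMUSG00000032578) at chr9:107296026-107302784. The GENCODE annotation places other genes over parts of Ifnar2, Jak1, Tyk2 and Cish. The counting was not stated to use strand, so reads of these overlapping genes could not be told apart from theirs.

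Promoters of the 10 genes, from 250 bases before to 50 bases after the RefSeq start site on GRCm38.p6, were searched on both strands for the letters TTCNNNGAA, the GAS element that STAT dimers bind, and for the core of the ISRE (TTTC, any 2 bases, then TTTC), which a complex of STAT factors with Irf9 binds. The GAS letters stood in 8.3% of 32851 mouse promoters and the ISRE letters in 3.44%. The GAS letters were found for 4 of the 10 genes (Ifnar1, Ifnar2, Socs3 and Cish) and the ISRE letters for 1 (Socs1); no match of one motif overlapped a match of the other. The stretches of the 3 inhibitors, whose levels moved most in what follows or were lowest, are shown 5′ to 3′ on the gene's own strand, with the matched letters in capitals. In Socs1 (chr16:10785540-10785659, minus strand) the capitals hold 2 overlapping ISRE matches, at −83 to −74 and −77 to −68 from the start site. In Socs3 (chr11:117969496-117969525, minus strand) they mark the GAS match at −154 to −146, and in Cish (chr9:107296654-107296683, plus strand) 2 GAS matches at 1 to 9 and 12 to 20.
Socs1: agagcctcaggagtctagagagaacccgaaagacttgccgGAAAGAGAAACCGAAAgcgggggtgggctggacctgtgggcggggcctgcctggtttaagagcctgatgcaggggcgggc
Socs3: cagccTTCTTAGAAgggaggggggggaaag
Cish: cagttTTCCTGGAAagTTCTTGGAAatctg

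The Ifnar1 match, TTCACGGAA, spans the start site (−5 to 4), and the Ifnar2 match, TTCCTGGAA, lies at −214 to −206. None of the windows of Ifngr1, Ifngr2, Jak1, Jak2 and Tyk2 held either run of letters.

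Libraries held 17037459 to 25174764 counts in microglia and 25953296 to 35779977 in hippocampi. Levels are given as normalized CPM, counts scaled to a common library size, and were compared between groups but not between genes. Cgas (ENSMUSG00000032344), the gene that was knocked out, had 18.8 to 27.2 normalized CPM in Cgas+/+ and 4.07 to 5.47 in Cgas-/- vehicle libraries, so its 3′ reads were lower in the knockout but not absent. The 7 markers of all macrophages (such as Aif1, Cd68 and C1qa) were detected in every microglial library, with a summed level of 5734 to 6488 in Cgas+/+ and 4244 to 4461 in Cgas-/- cells. Of the 7 homeostatic markers, 6 were detected throughout and Siglech was at 0 in both vehicle groups. Their sum was 3119 to 3454 in Cgas+/+ and 2014 to 2522 in Cgas-/- cells. The 6 endothelial and mural markers summed to 87.9 to 99.2 normalized CPM with vehicle, 101.1 to 125.2 with tau and 277 to 280.3 with HT-DNA in Cgas+/+ cells, and to 21.3 to 28.6 in Cgas-/- cells. The 6 markers of the oligodendrocyte lineage summed to 78.1 to 89.4 with vehicle, 56.4 to 77.4 with tau and 103.5 to 107.1 with HT-DNA in Cgas+/+ cells, and to 43.8 to 48.6 in Cgas-/- cells, where Olig2 was at 0. Astrocyte markers summed to at most 13.7 and neuronal markers to at most 2.18. The part of these differences in the results was not tested. Among the Cgas-/- cells, HT-DNA library 1 stood apart from the other 2 of its group, with a chi-square per degree of freedom over genes of 20.5 and 25.6, where the other pairs within microglial groups were at 2.25 to 9.77.

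Each comparison used edgeR's quasi-likelihood test, and a gene was counted as changed when its p-value, adjusted over all genes tested, was under 0.05. SE marks an approximate standard error: the absolute log2 fold change divided by the square root of the F statistic of that test. The study calls the microglial samples of a condition biologically independent, and the labels do not name the culture behind each library. The plot of levels in primary microglia shows all 10 genes in each library.

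**Figure D1:**
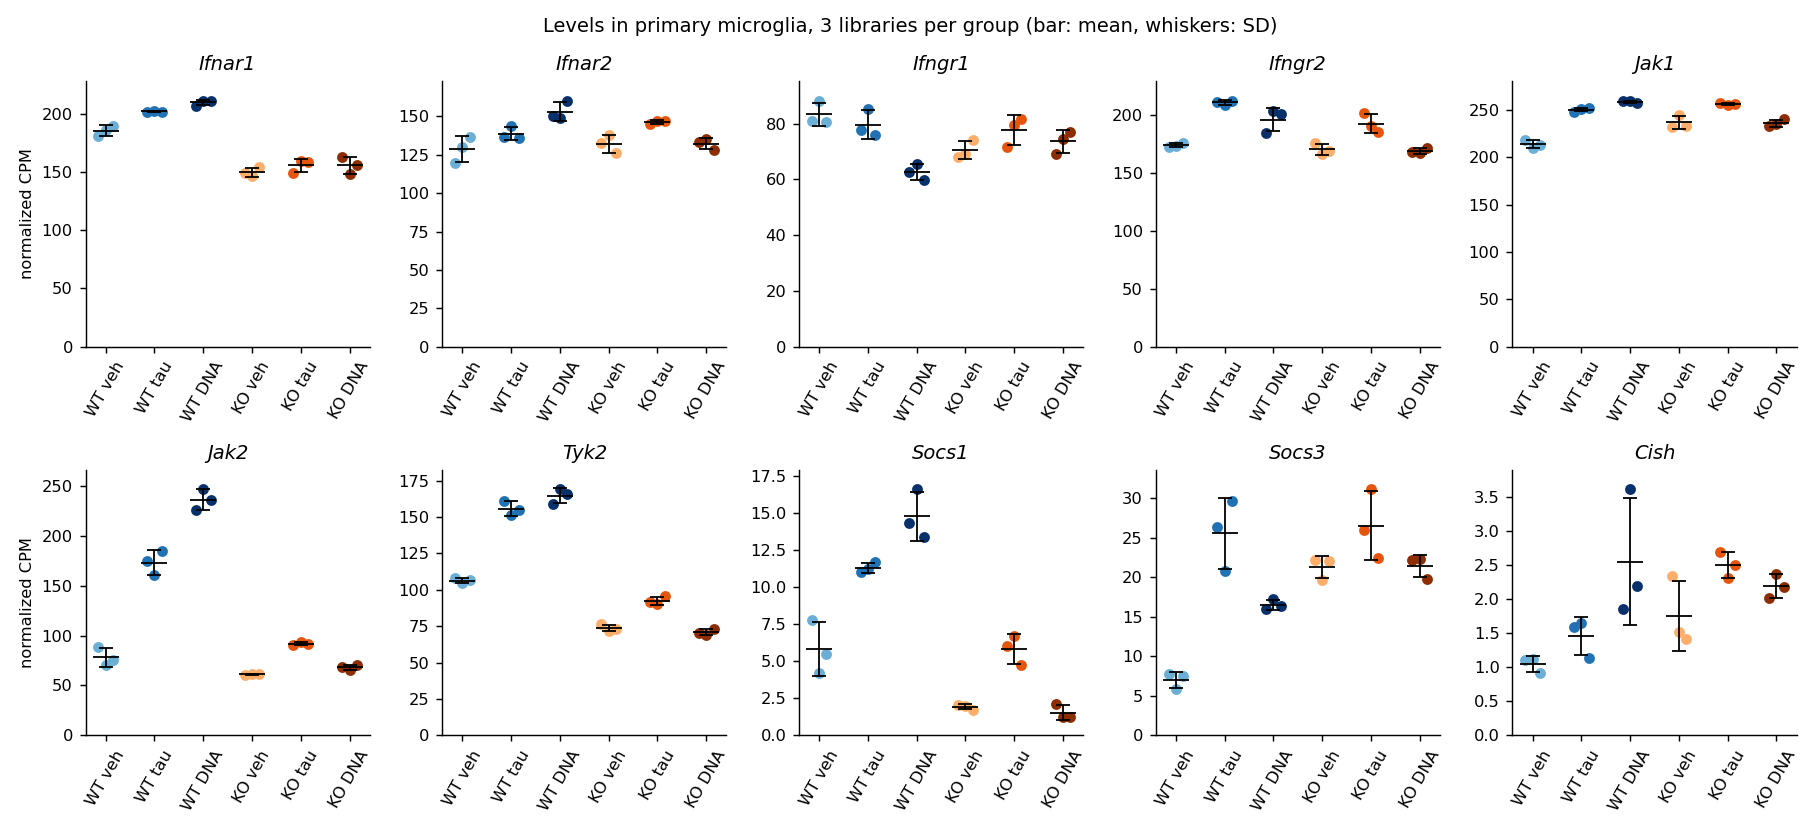
Normalized CPM (vertical axis, from 0) of the 10 genes in each of 3 libraries of WT (Cgas+/+, blue) and Cgas KO (Cgas-/-, orange) microglia with vehicle (veh), tau fibrils or HT-DNA (DNA); horizontal bars are means and whiskers SD. Jak2 reached 226 to 247 with HT-DNA in WT cells against 65.5 to 71.01 in Cgas KO cells, whereas Socs3 with vehicle was higher in Cgas KO cells (19.7 to 22.2) than in WT cells (5.80 to 7.71).

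Among the receptor chains the changes were small in size. In Cgas+/+ cells Ifngr2, the chain that carries Jak2, rose from 173.9 ± 1.88 normalized CPM with vehicle to 210.6 ± 1.86 with tau and 195.7 ± 10.2 with HT-DNA (SD, n = 3). Its log2 fold changes were 0.28 (SE 0.04, adjusted p = 4.71e-06) and 0.17 (SE 0.04, adjusted p = 0.00116). Ifngr1, the ligand-binding chain of the same receptor, went the other way with HT-DNA: the libraries read 81.0, 88.2 and 80.7 with vehicle and 62.5, 65.5 and 59.9 with HT-DNA. All 3 HT-DNA libraries lay below all 3 vehicle libraries, and Ifngr1 fell by 0.41 on the log2 scale (SE 0.06, adjusted p = 1.42e-06). With tau it was at 77.7, 85.4 and 75.8, overlapping vehicle, with a log2 fold change of −0.06 (adjusted p = 0.462). Tau and HT-DNA libraries did not overlap, and Ifngr1 was 0.35 higher on the log2 scale with tau (SE 0.06, adjusted p = 3.5e-05). The 2 chains of the interferon gamma receptor therefore moved in opposite directions with HT-DNA in Cgas+/+ cells.

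Neither chain of that receptor changed with HT-DNA in Cgas-/- cells. Ifngr1 had a log2 fold change of 0.06 (adjusted p = 0.732) and Ifngr2 one of −0.01 (adjusted p = 0.957). The responses to HT-DNA differed between genotypes by 0.48 for Ifngr1 (SE 0.08, adjusted p = 4.63e-05) and by −0.18 for Ifngr2 (SE 0.06, adjusted p = 0.0176). The second of these differences did not pass without Cgas+/+ HT-DNA library 2 (adjusted p = 0.0589), Cgas+/+ HT-DNA library 3 (0.0502) or Cgas-/- vehicle library 1 (0.0614). With tau, Ifngr2 rose in Cgas-/- cells too, by 0.18 (SE 0.04, adjusted p = 0.00229), and the responses of the 2 genotypes were not shown to differ (−0.10, adjusted p = 0.377).

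Ifnar1, the type I receptor chain that carries Tyk2, stood at 181.1 to 189.9 normalized CPM with vehicle in Cgas+/+ cells, at 202.4 to 203 with tau and at 207.6 to 211.8 with HT-DNA. The ranges did not overlap, but the rises were small: 0.12 on the log2 scale with tau (SE 0.04, adjusted p = 0.0202) and 0.18 with HT-DNA (SE 0.04, adjusted p = 0.000581). The call with tau was lost without Cgas+/+ vehicle library 1 (adjusted p = 0.0946) or tau library 3 (0.0528). All 9 Cgas-/- libraries had Ifnar1 at 146.6 to 163, below every Cgas+/+ library. It was lower in Cgas-/- than in Cgas+/+ cells by −0.31 with vehicle, −0.38 with tau and −0.43 with HT-DNA on the log2 scale (SE 0.04 each), with adjusted p-values of 3.43e-07, 8.04e-09 and 3.01e-10. This was the receptor chain with the largest difference between genotypes under each treatment.

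Its partner Ifnar2, the high-affinity ligand-binding chain, did not show that difference with vehicle: 129 ± 8.58 normalized CPM in Cgas+/+ and 132.4 ± 5.88 in Cgas-/- cells (SD, n = 3, log2 difference 0.04, adjusted p = 0.53). It rose with HT-DNA in Cgas+/+ cells by 0.25 (SE 0.05, adjusted p = 6.57e-05), from 119.8, 130.4 and 136.8 to 150.1, 149.2 and 160.3. The Cgas-/- libraries with HT-DNA read 133.3, 135.5 and 128.2, inside the vehicle range. The difference between these responses was −0.25 (SE 0.07, adjusted p = 0.00415). With tau the log2 fold change of Ifnar2 was 0.11 in Cgas+/+ cells (adjusted p = 0.0959) and 0.15 in Cgas-/- cells (SE 0.05, adjusted p = 0.0276). That call was lost without Cgas-/- vehicle library 1 or 3 or tau library 2 or 3 (adjusted p 0.0735 to 0.168), and the difference between genotypes did not pass (0.04, adjusted p = 0.801).

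Of the kinases, Jak2 moved most. In Cgas+/+ cells its 3 vehicle libraries had 89.2, 70.8 and 75.3 normalized CPM, the tau libraries 174.8, 160.7 and 185.2, and the HT-DNA libraries 226, 247.1 and 236.7. Vehicle, tau and HT-DNA thus formed 3 separate ranges, lowest to highest. Jak2 rose 2.21-fold with tau (log2 fold change 1.14, SE 0.06, adjusted p = 2.62e-14) and 3.01-fold with HT-DNA (1.59, SE 0.06, adjusted p = 5.86e-18). It was 0.45 lower on the log2 scale with tau than with HT-DNA (−0.45, SE 0.06, adjusted p = 4.8e-07).

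Without Cgas, Jak2 read 60.8, 61.6 and 61.6 with vehicle, 90.6, 93.6 and 91.6 with tau, and 68.2, 65.5 and 71.01 with HT-DNA. The tau libraries stood clear of the others, and lay just above the highest Cgas+/+ vehicle library. The rise with tau was 1.499-fold (log2 fold change 0.58, SE 0.06, adjusted p = 2.82e-08). With HT-DNA all 3 libraries lay above vehicle, but the log2 fold change of 0.15 did not pass (SE 0.06, adjusted p = 0.306). The responses were smaller in Cgas-/- than in Cgas+/+ cells, by −0.56 on the log2 scale for tau (SE 0.09, adjusted p = 9.61e-05) and by −1.44 for HT-DNA (SE 0.09, adjusted p = 6.68e-13).

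Tyk2 followed a similar order with smaller steps. It had 104.6 to 108.1 normalized CPM with vehicle in Cgas+/+ cells, 151.6 to 161.1 with tau and 159.2 to 169 with HT-DNA, so that tau and HT-DNA overlapped above vehicle. The log2 fold changes were 0.55 (SE 0.04, adjusted p = 1.94e-11) and 0.63 (SE 0.04, adjusted p = 3.61e-13). Tyk2 was already lower with vehicle in Cgas-/- cells, at 71.7 to 76.1 (log2 difference from Cgas+/+ −0.53, SE 0.04, adjusted p = 3.68e-11). There it rose with tau to 90.3 to 95.5 (0.33, SE 0.04, adjusted p = 9.03e-07), still below every Cgas+/+ library, and with HT-DNA it stayed at 68.8 to 73.1 (−0.06, adjusted p = 0.665). The response to HT-DNA was smaller in Cgas-/- cells by −0.69 (SE 0.06, adjusted p = 4.93e-10) and that to tau by −0.22 (SE 0.06, adjusted p = 0.0215). The second difference missed the threshold without Cgas+/+ vehicle library 2 (adjusted p = 0.0559), Cgas-/- vehicle library 1 (0.0759) or Cgas-/- tau library 2 (0.0627).

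Jak1, the kinase shared by all 3 classes of interferon receptor, moved least of the kinases. In Cgas+/+ cells it rose from 214.1 ± 4.19 to 250.5 ± 1.91 normalized CPM with tau and 258.9 ± 1.12 with HT-DNA (SD, n = 3), log2 fold changes of 0.23 (SE 0.04, adjusted p = 1.07e-05) and 0.27 (SE 0.04, adjusted p = 2.69e-07). Unlike Jak2 and Tyk2 it was higher in Cgas-/- than in Cgas+/+ vehicle cells, at 236.9 ± 6.86 (log2 difference 0.15, SE 0.04, adjusted p = 0.00117). Its rise with tau in Cgas-/- cells was 0.11 (SE 0.04, adjusted p = 0.0258), a call that held in only 1 of the 6 fits that left out 1 library, the fit without vehicle library 2. In the other 5, without vehicle library 1 or 3 or any of the tau libraries, the adjusted p was 0.0501 to 0.122. With HT-DNA its log2 fold change in Cgas-/- cells was −0.01 (adjusted p = 0.973), and this response differed from that of Cgas+/+ cells by −0.28 (SE 0.05, adjusted p = 6.65e-05).

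Socs1, the kinase inhibitor whose promoter holds the ISRE letters, rose with both stimuli in Cgas+/+ cells and was far lower without Cgas. In Cgas+/+ cells the libraries had 7.80, 4.20 and 5.45 normalized CPM with vehicle (97 to 176 counts), 11.02, 11.2 and 11.7 with tau, and 14.3, 16.6 and 13.4 with HT-DNA. The 3 groups did not overlap. The log2 fold change was 0.96 with tau (SE 0.17, adjusted p = 4.83e-05) and 1.34 with HT-DNA (SE 0.17, adjusted p = 9.44e-08), and tau against HT-DNA gave −0.39 (SE 0.16, adjusted p = 0.0536). This last difference passed with RLE scaling (adjusted p = 0.0366), without the low-count filter (0.0176), with the replicate number as a block (0.0488) and in the fit of only the compared groups (0.00538), and not with DESeq2 (0.078).

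In Cgas-/- cells Socs1 read 2.07, 1.98 and 1.72 with vehicle (37 to 39 counts), 6.04, 6.70 and 4.73 with tau, and 2.12, 1.24 and 1.21 with HT-DNA. Tau brought it to the range of unstimulated Cgas+/+ cells, and the HT-DNA libraries overlapped vehicle. The 3.04-fold rise with tau (log2 fold change 1.603, SE 0.21, adjusted p = 1.18e-06) exceeded that of Cgas+/+ cells on the log2 scale, but the difference of 0.65 did not pass (SE 0.28, adjusted p = 0.176). It did so without Cgas+/+ vehicle library 2 (0.85, adjusted p = 0.0467). With HT-DNA the log2 fold change was −0.36 (SE 0.27, adjusted p = 0.644), and this response differed from that in Cgas+/+ cells by −1.70 (SE 0.32, adjusted p = 9.37e-05). Between genotypes Socs1 was lower in Cgas-/- cells by −1.61 with vehicle (SE 0.22, adjusted p = 4.45e-07), −0.96 with tau (SE 0.17, adjusted p = 1.95e-05) and −3.31 with HT-DNA (SE 0.20, adjusted p = 2.66e-14).

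Socs3, best known as the inhibitor of receptors that signal through gp130, behaved differently. In Cgas+/+ cells it had 7.71, 5.80 and 7.50 normalized CPM with vehicle, 26.3, 20.7 and 29.6 with tau, and 16.0, 17.2 and 16.3 with HT-DNA. Here tau gave the highest level and HT-DNA an intermediate one, the reverse of the order for Jak2 and Socs1. Socs3 rose 3.65-fold with tau (log2 fold change 1.87, SE 0.13, adjusted p = 4.14e-12) and 2.37-fold with HT-DNA (1.24, SE 0.14, adjusted p = 1.27e-08). Tau exceeded HT-DNA by 0.62 (SE 0.12, adjusted p = 0.000105).

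Socs3 in Cgas-/- cells was already high with vehicle, at 22.2, 19.7 and 22.1, and read 25.9, 31.1 and 22.5 with tau and 22.2, 22.3 and 19.8 with HT-DNA. The Cgas-/- vehicle libraries thus overlapped the range that Cgas+/+ cells reached with tau. With vehicle, Socs3 was 3.06-fold higher in Cgas-/- than in Cgas+/+ cells (log2 difference 1.61, SE 0.13, adjusted p = 4.24e-11). With tau the genotypes did not differ detectably (0.06, SE 0.11, adjusted p = 0.704). The rise with tau in Cgas-/- cells was 0.31 (SE 0.11) and just missed the threshold (adjusted p = 0.0526). It passed without tau library 3 (0.42, adjusted p = 0.0109), without the low-count filter (0.30, adjusted p = 0.00635) and in the fit of only the compared groups (0.30, adjusted p = 0.0289), and not with DESeq2 (adjusted p = 0.104) or RLE scaling (0.064). The responses were smaller in Cgas-/- than in Cgas+/+ cells by −1.56 for tau (SE 0.17, adjusted p = 4.14e-07) and −1.24 for HT-DNA (SE 0.18, adjusted p = 2.64e-06).

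Cish, the inhibitor linked to STAT5, was measured with few reads, 17 to 67 counts a library. In Cgas+/+ cells it had 1.11, 1.12 and 0.917 normalized CPM with vehicle, 1.58, 1.65 and 1.14 with tau, and 1.85, 3.61 and 2.18 with HT-DNA. Only the rise with HT-DNA passed (log2 fold change 1.27, SE 0.27, adjusted p = 0.000341), whereas tau gave 0.47 (SE 0.29, adjusted p = 0.266). Like Socs3, Cish was higher in Cgas-/- than in Cgas+/+ cells with vehicle (2.34, 1.51 and 1.41, log2 difference 0.71, SE 0.29, adjusted p = 0.0376). This call was lost without any of the 3 Cgas+/+ vehicle libraries (adjusted p 0.0589 to 0.105) or without Cgas-/- vehicle library 1 (0.232), with DESeq2 (0.0646) and without the low-count filter (0.0506). In Cgas-/- cells it was at 2.30 to 2.69 with tau and 2.01 to 2.37 with HT-DNA, with log2 fold changes of 0.52 (adjusted p = 0.182) and 0.34 (adjusted p = 0.656).

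Counted over the 10 genes, tau in Cgas+/+ cells raised 7 and lowered none, where 28.0% of the 13675 genes tested changed (15.8% higher and 12.2% lower). The 3 others were Ifnar2, Ifngr1 and Cish, and the median log2 fold change of the 10 was 0.37, against −0.01 over all genes. HT-DNA in Cgas+/+ cells changed all 10, with 9 higher and Ifngr1 lower, against a background of 47.4% (22.8% higher and 24.7% lower). The median was 0.45, against −0.03 over all genes. In Cgas-/- cells tau raised 6 of the 10 (Ifnar2, Ifngr2, Jak1, Jak2, Tyk2 and Socs1), where 16.7% of all genes changed (11.2% higher and 5.48% lower). The median log2 fold change of the 10 there was 0.25. HT-DNA in Cgas-/- cells changed 0 of the 10 by edgeR, against 1.32% of all genes (1.04% higher and 0.278% lower). By unadjusted p under 0.05 the count was 1, Jak2, and DESeq2 also called 0 of the 10. The share of all genes at that unadjusted threshold was not counted.

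**Figure D2:**
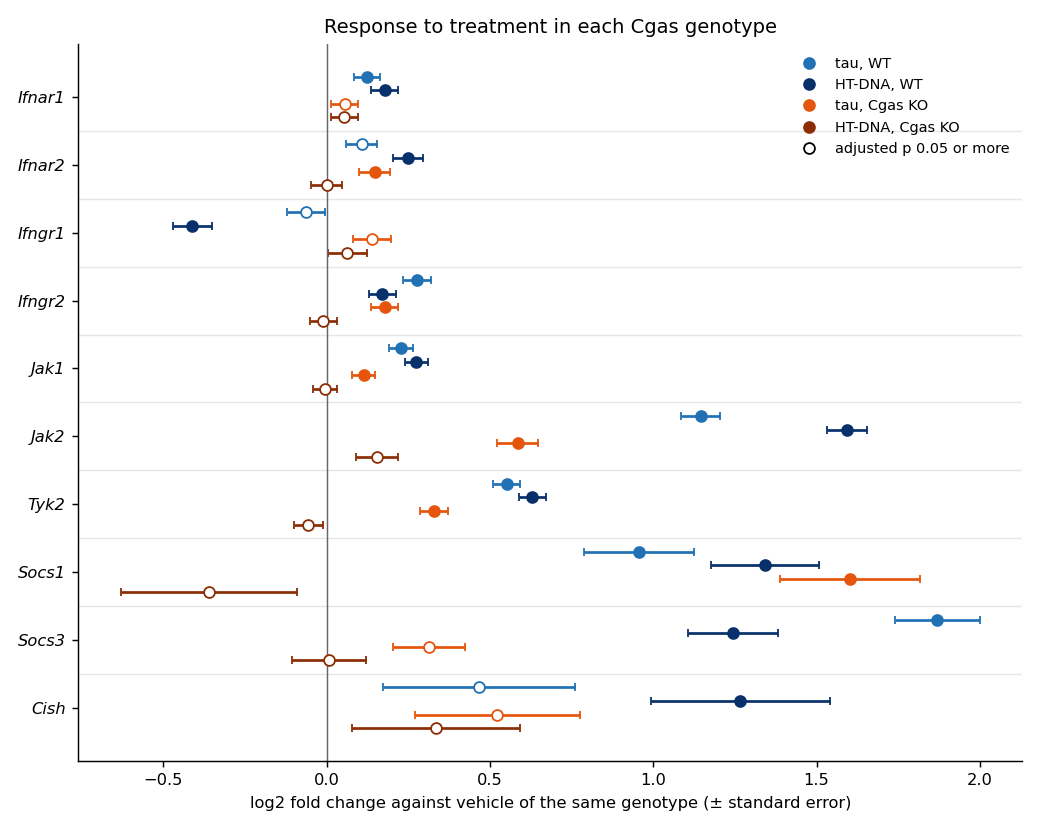
Log2 fold change against vehicle of the same genotype (horizontal axis, points with standard errors) of the 10 genes for tau and HT-DNA in WT (Cgas+/+) and Cgas KO (Cgas-/-) microglia; filled points have an adjusted p under 0.05 and open points do not. All 10 points of HT-DNA in WT cells are filled, with Ifngr1 alone below 0, and all 10 of HT-DNA in Cgas KO cells are open.

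Between the stimuli in Cgas+/+ cells, 3 of the 10 were higher with tau (Ifngr1, Ifngr2 and Socs3) and 3 lower (Ifnar2, Jak2 and Cish), where 34.9% of all genes differed (17.1% higher and 17.8% lower). Of these, Ifngr2 was near the threshold (log2 difference 0.11, adjusted p = 0.0484), and its call was lost without Cgas+/+ HT-DNA library 1 or any tau library (adjusted p 0.0708 to 0.263). The calls of Ifnar2 (−0.14, adjusted p = 0.019) and Cish (−0.80, adjusted p = 0.0193) were lost without tau library 3 (0.0772 and 0.0958). Ifnar2 also lost its call without HT-DNA library 3 (0.141) and Cish without HT-DNA library 2 (0.236). Without tau library 3 the count of 6 became 3, in a fit where 4330 of 14069 genes tested passed. With every library 4768 of 13675 did.

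Between genotypes with vehicle, 3 of the 10 were higher in Cgas-/- cells (Jak1, Socs3 and Cish) and 5 lower (Ifnar1, Ifngr1, Jak2, Tyk2 and Socs1), against 52.0% of all genes (24.7% higher and 27.3% lower). With tau 1 was higher (Cish, lost without Cgas+/+ tau library 3, adjusted p = 0.0773) and 5 lower (Ifnar1, Ifngr2, Jak2, Tyk2 and Socs1), against 51.3% (25.2% higher and 26.2% lower). The Ifngr2 call there (−0.13, adjusted p = 0.00913) was lost without Cgas-/- tau library 3 (0.0688). With HT-DNA 2 were higher (Ifngr1 and Socs3) and 7 lower, against 63.2% (33.1% higher and 30.1% lower). Ifnar1, Jak2, Tyk2 and Socs1 were the 4 genes called lower in Cgas-/- cells under all 3 treatments. The share of all genes called lower under all 3 was not counted. The response to tau differed between genotypes for 3 of the 10 (Jak2, Tyk2 and Socs3, each smaller in Cgas-/- cells), where 6.91% of all genes differed (3.61% larger and 3.31% smaller). The response to HT-DNA differed for 8 of the 10 (7 smaller, and Ifngr1), against 34.0% of all genes (17.4% larger and 16.6% smaller). Without Cgas-/- HT-DNA library 1, the library that stood apart, these 8 passed and Ifnar1 did too (−0.21, adjusted p = 0.00846, against −0.12 and 0.1 with it), while the counts with HT-DNA stayed at 0 within Cgas-/- cells and at 9 between genotypes. The plot of genotype differences gives the log2 values for each treatment.

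**Figure D3:**
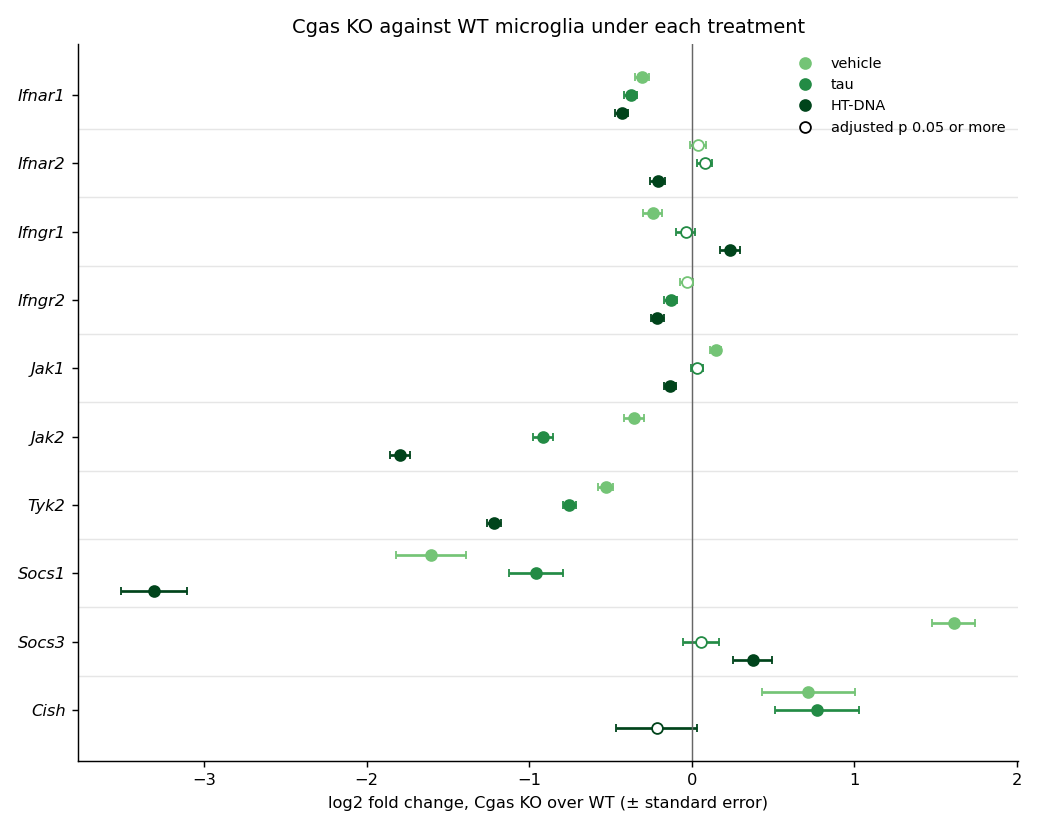
Log2 fold change of Cgas KO (Cgas-/-) over WT (Cgas+/+) microglia (horizontal axis, points with standard errors) of the 10 genes with vehicle, tau or HT-DNA; filled points have an adjusted p under 0.05 and open points do not. Ifnar1, Jak2, Tyk2 and Socs1 have filled points below 0 under all 3 treatments, with Socs1 at −3.31 under HT-DNA. Socs3 is at 1.61 with vehicle and 0.06 with tau.

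In the hippocampus, Socs3 was the only gene of the 10 that changed, 1 of 10 where 1.51% of the 16453 genes tested did (1.39% higher and 0.122% lower). It ranged from 0.885 to 1.78 normalized CPM in the 7 Ntg mice (median 1.26) and from 1.58 to 7.68 in the 6 P301S mice (median 4.78). In the P301S mice it read 6.97 (mouse 29), 7.68 (mouse 36), 3.23 (mouse 43), 1.58 (mouse 63), 5.002 (mouse 65) and 4.56 (mouse 77). Of these, 5 lay above every Ntg mouse and mouse 63 lay among them. The mean rose from 1.27 ± 0.338 (SD, n = 7) to 4.84 ± 2.28 (SD, n = 6), a 3.81-fold change (log2 1.93, SE 0.31, adjusted p = 0.0169, exact two-sided permutation p = 0.00175, where 0.000583 is the smallest that 7 against 6 mice allow). The call was lost without Ntg mouse 35 (adjusted p = 0.0559), Ntg mouse 61 (0.0584), Ntg mouse 68 (0.0513) or P301S mouse 36 (0.0533), with log2 fold changes of 1.75 to 1.93. In those 4 fits 14 to 20 of all genes tested passed, against 249 with every mouse, and over all fits without 1 mouse that number ran from 14 to 946, the highest without P301S mouse 43.

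Summed markers of macrophages, astrocytes and homeostatic microglia had higher medians in P301S than in Ntg mice. In these whole hippocampi more cells of a type and more RNA per cell cannot be told apart. Oligodendrocyte markers had medians of 4321 in Ntg and 5906 in P301S mice. Neuronal markers were at 7359 and 7395, endothelial and mural ones at 213 and 197, and fibroblast ones at 95.8 and 39.7. T cell markers, only 1 of 5 above 3 counts in every mouse of a group, were at 0.721 and 1.94. Border macrophage markers were at 2.24 and 1.92, and neutrophil markers at 0.253 and 0.243. Choroid plexus markers were at 2053 and 620, with a range of 97.2 to 5495 in P301S mice. All 7 macrophage markers were detected in every mouse, and their summed level was 132.1 to 160.7 normalized CPM in Ntg (median 146) and 154.6 to 842 in P301S mice (median 531). The 6 astrocyte markers summed to 3628 to 4411 in Ntg and 3703 to 7389 in P301S mice. The 7 homeostatic microglial markers summed to 337 to 419.8 and 336 to 727. The mean log2 level of these last markers was lowest among P301S mice in mice 43 (5.26) and 63 (5.38), which also had the lowest Socs3. With this mean as a covariate the log2 fold change of Socs3 was 1.48 (SE 0.32) and did not pass (adjusted p = 0.144). In that fit 21 of all genes tested passed, against 249 without the covariate. The part of cell content in the rise of Socs3 was not tested.

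Socs1 was sparse in hippocampus, with 8 to 32 counts a mouse. It had 0.264 to 0.421 normalized CPM in Ntg (median 0.373) and 0.377 to 1.21 in P301S mice (median 0.611), and 5 of 6 P301S mice lay above every Ntg mouse. The mouse that did not was mouse 36, the one with the highest Socs3. Its log2 fold change was 0.96 (SE 0.27), which did not pass over all genes (adjusted p = 0.0827, exact permutation p = 0.00233).

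The 2 chains of the interferon gamma receptor had fold changes of opposite sign, neither past the threshold. Ifngr1 was at 14.9 to 17.6 in Ntg (median 16.3) and 14.5 to 26.8 in P301S mice (median 21), with a log2 fold change of 0.39 (SE 0.13, adjusted p = 0.145, exact permutation p = 0.0326). Without P301S mouse 43, the P301S mouse with the lowest Ifngr1, it passed (0.48, adjusted p = 0.0222). It did not pass in the 12 other fits without 1 mouse, with an adjusted p of up to 0.347 (without P301S mouse 29). Under the other settings the log2 fold change of Ifngr1 ran from 0.131 to 0.392, with adjusted p from 0.0843 to 0.74. Ifngr2 was at 61.6 to 83.3 in Ntg (median 68.2) and 54.3 to 65.3 in P301S mice (median 60.3), with −0.22 (SE 0.07, adjusted p = 0.145, exact permutation p = 0.00641). No adjustment over the 10 genes was made to the exact p-values. The type I chains Ifnar1 (0.02, SE 0.06) and Ifnar2 (0.23, SE 0.12) did not pass either (adjusted p 0.915 and 0.35).

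The kinases that rose in cultured microglia overlapped between the mouse groups. Jak2 had 29.2 to 36.1 normalized CPM in Ntg and 28.1 to 38.4 in P301S mice (log2 fold change −0.01, SE 0.08, adjusted p = 0.974). Tyk2 had −0.08 (SE 0.11, adjusted p = 0.813) and Jak1 −0.13 (SE 0.07, adjusted p = 0.382). Cish had 0.32 (SE 0.22, adjusted p = 0.535), with 2.97 to 7.52 in Ntg and 3.46 to 8.76 in P301S mice. The groups overlapped for all 10 genes, where they did not overlap for 0.608% of all genes tested. The plot of hippocampal levels shows every mouse.

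**Figure D4:**
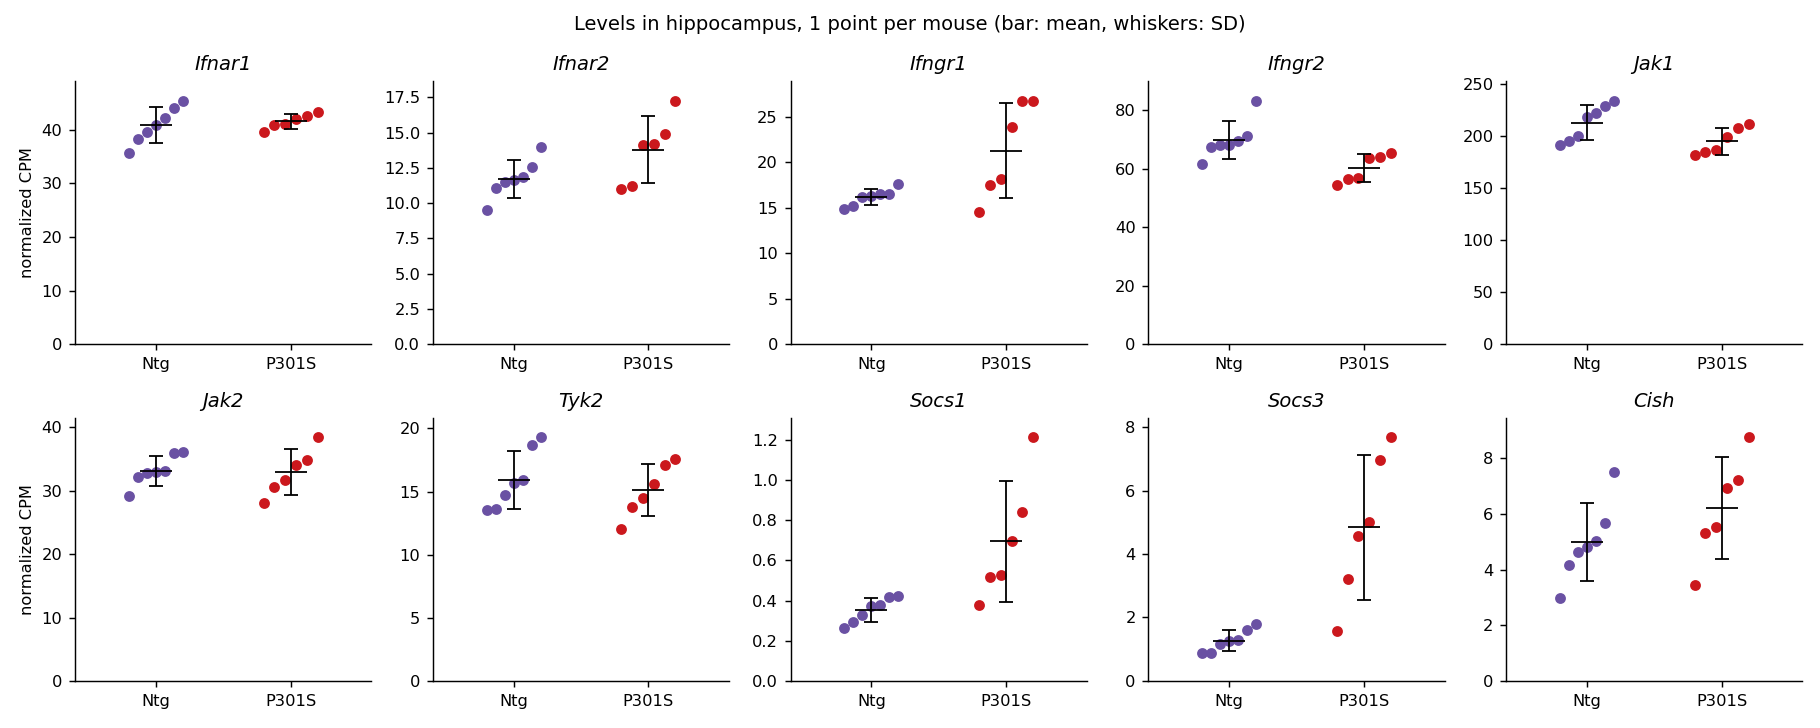
Normalized CPM (vertical axis, from 0) of the 10 genes in the hippocampus of 7 Ntg and 6 P301S mice, 1 point per mouse in rising order, with horizontal bars at the mean and whiskers of SD. Socs3 ranges from 0.885 to 1.78 in Ntg and from 1.58 to 7.68 in P301S mice, and the groups overlap for all 10 genes.

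The other genes of the pathway were followed in 4 lists, whose counts stand beside the shares of all genes already given: 28.0% with tau and 47.4% with HT-DNA in Cgas+/+ cells, 16.7% and 1.32% in Cgas-/- cells, and 1.51% in hippocampus. At 1.32%, a list of this size with 0 genes called is near the background. Of 28 ligands of JAK-coupled receptors, 7 had enough reads for a test in microglia, and 5 were higher with tau and 6 with HT-DNA in Cgas+/+ cells, 3 with tau and 0 with HT-DNA in Cgas-/- cells. Ifnb1, which encodes interferon beta, had 0 to 10 counts with vehicle, 1 to 11 with tau and 71 to 96 with HT-DNA in Cgas+/+ cells, and at most 1 count in any Cgas-/- library. Only HT-DNA in Cgas+/+ cells raised it past the threshold. Il6, a ligand of the gp130 receptors that Socs3 restrains, had 0 to 2 counts with vehicle and 29 to 61 with tau in Cgas+/+ cells, against 1 to 5 and 30 to 40 in Cgas-/- cells. Both rises with tau passed. In hippocampus 4 ligands could be tested, and 0 changed by edgeR. At an unadjusted p under 0.05 there were 2, without a counted share of all genes at that threshold.

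Of 7 genes for STAT factors and Irf9 reported here, 6 were tested in microglia. With tau 3 rose in Cgas+/+ cells (Stat2, Stat3 and Irf9) and 2 in Cgas-/- cells (Stat2 and Irf9), and with HT-DNA 3 rose in Cgas+/+ cells (Stat2, Stat3 and Stat6) and 0 in Cgas-/- cells. Stat2, a factor that Ifnar1 and Ifnar2 activate, was at 22.9 to 25.9 normalized CPM in Cgas-/- vehicle libraries and reached 156.6 to 164.1 with tau, while Cgas+/+ cells went from 215.4 to 351.6 up to 540.6 to 607.3. The rise in Cgas-/- cells started from a low level and stayed under every Cgas+/+ vehicle library. On the log2 scale it was larger in Cgas-/- than in Cgas+/+ cells, 2.74 (SE 0.11) against 1.02 (SE 0.09), and the difference of 1.72 passed (SE 0.14, adjusted p = 2.1e-09), opposite in sign to those of Jak2, Tyk2 and Socs3. Irf9, the partner of STAT factors at the ISRE, rose by 1.46 (SE 0.06) against 0.25 (SE 0.05) on that scale, a difference of 1.21 (SE 0.08, adjusted p = 1.99e-11). In hippocampus 2 of the 6 rose, Stat3 by 0.52 (SE 0.11, adjusted p = 0.0384) and Irf9 by 1.24 (SE 0.24, adjusted p = 0.0303).

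All 14 other negative regulators were tested. With tau 5 rose and 2 fell in Cgas+/+ cells and 3 rose and 1 fell in Cgas-/- cells. With HT-DNA 6 rose and 3 fell in Cgas+/+ cells and 0 changed in Cgas-/- cells. The largest rise was that of Usp18, an inhibitor that binds Ifnar2: 1.59 with tau and 2.37 with HT-DNA in Cgas+/+ cells (SE 0.14 each), and 5.28 with tau in Cgas-/- cells (SE 0.25), from 1.45 to 2.50 up to 76.9 to 84.7 normalized CPM. On the log2 scale its response to tau was larger in Cgas-/- cells by 3.70 (SE 0.31, adjusted p = 2.88e-09). That rise started from a low level, and the difference does not give which genotype had more Usp18 with tau. Among the SOCS genes outside the 10, Socs7 rose (0.41 with tau and 0.74 with HT-DNA in Cgas+/+ cells) and Socs6 fell (−0.41 and −0.19). In hippocampus Usp18 rose by 2.71 (SE 0.54, adjusted p = 0.0303) and Ptpn6, the phosphatase SHP-1 of blood-lineage cells, by 1.55 (SE 0.32, adjusted p = 0.0327), and the 12 others did not pass.

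Of 17 other JAK-coupled receptor chains with Jak3, 15 were tested in microglia. With tau 6 rose and 1 fell in Cgas+/+ cells, and 8 rose and 1 fell in Cgas-/- cells. With HT-DNA 7 rose and 2 fell in Cgas+/+ cells, and 0 changed in Cgas-/- cells. Il15ra, the receptor chain that presents interleukin 15, had the largest rise in each of the first 3 (1.56, 1.38 and, with HT-DNA in Cgas+/+ cells, 2.05), and Il6st, which encodes gp130, fell with tau in both genotypes (−0.19 and −0.29). In hippocampus all 17 were tested and 5 rose, led by Osmr (2.02), Csf2rb (1.61) and Csf3r (1.35). Osmr, the receptor of oncostatin M, had at most 8 counts in any microglial library. The hippocampal calls in the 4 lists were not followed through fits without 1 mouse or with the microglial marker mean as a covariate. Of all genes tested in hippocampus, as few as 14 passed without 1 mouse and 21 with that covariate, against 249 in the main fit. Over the 4 lists and the 10 genes, no gene passed with HT-DNA in Cgas-/- cells by edgeR. At an unadjusted p under 0.05 there were 1 of the 7 ligands, 5 of the 15 receptor chains, 1 of the 14 negative regulators and 0 of the 6 genes for STAT factors and Irf9. These counts have no background beside them, since the share of all genes at that unadjusted threshold was not counted.

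Genes whose log2 levels ran most closely with each of the 10 over the 18 microglial libraries were ranked by Pearson's r among about 9460 genes, as a description, since all share the same libraries and treatments. Jak2 ran with Map2k1 (r = 0.993), Cd274 (0.993), which encodes PD-L1, and Ppip5k2 (0.993). Tyk2 ran with Lacc1 (0.994), Psmb10 (0.993) and Peli1 (0.991), and Socs1 with the interferon-inducible genes Gbp7 (0.986), Phf11b (0.983) and Mndal (0.982). For Ifnar1 the nearest were Tob2 (0.983), Ids (0.981) and Vav1 (0.98), for Ifngr2 Rab12 (0.963), March1 (0.958) and Coro1b (0.95), and for Jak1 AA467197 (0.969), Slamf7 (0.959) and Akr1a1 (0.959). The values were lower for Socs3, whose nearest genes were Rbpj (0.908), Kdm6b (0.905) and Gtpbp2 (0.9), for Ifngr1 (Pgap1, 0.893, Ptpn1, 0.89, and Arrb1, 0.878), for Cish (Inhba, 0.866, Rab18, 0.842, and Lims1, 0.841) and for Ifnar2 (Axl, 0.856, Ccnd2, 0.843, and Ensa, 0.84).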

How the data were processed

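The deposited tables hold raw read counts per Ensembl gene, which the authors made from QuantSeq 3′ libraries without normalization; GRCm38, edgeR and limma are named in the submitters' processing notes, and the aligner and counting tool are not given in the sources used here. Such 3′ reads measure transcript ends, so levels of different genes were not compared. Columns were matched to samples by name. Counts were scaled by TMM, filtered with filterByExpr (13675 microglial and 16453 hippocampal genes kept) and tested with edgeR 4.0.16 in R 4.3.3. The 18 microglial libraries were fitted in 1 model of 6 groups and the 13 hippocampi in another, and p-values were adjusted by Benjamini-Hochberg over all genes of a comparison. Single genes in hippocampus also had an exact permutation test of log2(CPM + 0.1). The 10 genes, the lists and the tests were chosen with earlier results of these data known. Named beside the 10 genes were, per list, up to 3 of the largest rises and falls past the threshold, the knocked-out gene and the 3 genes most alike. One gene of the lists is not reported here. The tests were tried on simulated data with 200 changed genes, and the limit for the share recovered was lowered after edgeR missed it in microglia. No 2 libraries of a group agreed within sampling noise. Alternatives were DESeq2 1.42.0, RLE scaling, no low-count filter, each library left out, a replicate block, only the compared groups, sex, and a microglial marker mean as covariates.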

Additional observations from a re-analysis of the deposited data

Results flagged for a closer look

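The response to a stimulus differed between Cgas+/+ and Cgas-/- microglia, by the edgeR test of the difference itself, in 11 cases among the 10 genes. These were 3 of the 10 for tau, where 6.91% of all genes differed, and 8 of the 10 for HT-DNA, where 34.0% did. For tau the differences on the log2 scale, Cgas-/- minus Cgas+/+, were −0.56 for Jak2, −0.22 for Tyk2 and −1.56 for Socs3. For HT-DNA they were −1.44 for Jak2, −0.69 for Tyk2, −1.70 for Socs1, −1.24 for Socs3, −0.28 for Jak1, −0.25 for Ifnar2, −0.18 for Ifngr2 and 0.48 for Ifngr1. The calls of Tyk2 for tau and of Ifngr2 for HT-DNA were each lost in 3 of the 12 fits without 1 library. The vehicle level of Socs3 was higher in Cgas-/- cells (21.3 ± 1.40 normalized CPM, n = 3) than in Cgas+/+ cells (7.003 ± 1.05, n = 3), and so was that of Jak1, whereas those of Ifngr1, Jak2, Tyk2 and Socs1 were lower there. No mouse stood apart from its group in the 20 sets of hippocampal values checked by Dixon's gap rule. It compares the gap to the nearest mouse with the range of the group (limits 0.625 for 6 mice and 0.568 for 7). With so few mice the rule can miss a deviating one. Ntg mouse 46, at 83.3 for Ifngr2 with the next Ntg mouse at 71.2, was not flagged.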

How the results depend on the processing

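Over the 10 genes in 11 comparisons, 515 of 550 values under other settings and 781 of 850 values with 1 library left out kept their direction and their side of the threshold. The counts of genes called, with 1 library left out, ranged from 6 to 8 for tau and 10 to 10 for HT-DNA in Cgas+/+ cells, 4 to 6 and 0 to 0 in Cgas-/- cells, 3 to 6 for tau against HT-DNA, 7 to 8, 5 to 6 and 9 to 9 for the genotypes with vehicle, tau and HT-DNA, 2 to 4 and 7 to 9 for the differences in response, and 0 to 2 in hippocampus. For microglia these ranges stand without the share of all genes in each fit. With the microglial marker mean as a covariate the hippocampal count was 0, in a fit where 21 of all genes tested passed.

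Signs changed only for values that were not called. With every library these were near 0, except that of Cish between genotypes with HT-DNA (−0.22, SE 0.25, adjusted p = 0.461). In Cgas-/- cells with HT-DNA, Ifnar2 was at −0.00225 with DESeq2, −0.00295 with RLE scaling, −0.00353 without the low-count filter and −0.0115 with only the compared groups, where Socs3 was at −0.0054. With 1 library left out, that comparison gave −0.0321 to 0.0327 for Ifnar2, −0.0455 to 0.0618 for Socs3, −0.0247 to 0.0129 for Ifngr2 and −0.0183 to 0.0197 for Jak1. The others were −0.0114 to 0.0825 for Ifnar2 between genotypes with vehicle, −0.075 to 0.0194 for Ifngr1 and −0.0761 to 0.178 for Socs3 between genotypes with tau, −0.404 to 0.119 for Cish between genotypes with HT-DNA, −0.00157 to 0.0919 for Ifnar2 and −0.091 to 0.309 for Cish in the difference of tau responses, and, in hippocampus, −0.0592 to 0.0323 for Jak2 and −0.0117 to 0.0492 for Ifnar1. The cause was not tested.

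Replicate numbers did not pair the microglial libraries: the deviations of same-numbered libraries correlated at −0.085 to 0.0823 over 45 pairs, and 5 of 18 libraries lay closest to their own number. With the replicate number as a block, the counts were those without it; in tau against HT-DNA the adjusted p of Ifngr2 became 0.0596 and that of Socs1 0.0488, and no other call changed.

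Cish and hippocampal Socs1 rest on few reads, so small changes in them were not detectable at this depth. DESeq2 alone also called Jak1 in tau against HT-DNA (−0.08) and in the difference of tau responses (−0.13). DESeq2 and RLE scaling both called Tyk2 (−0.11) in tau against HT-DNA and Ifnar1 in the difference of HT-DNA responses (−0.16 with RLE scaling), where RLE scaling also called Cish (−0.97). Both left Ifngr2 uncalled in tau against HT-DNA, as did the fit of only the compared groups and the one without the low-count filter. Without that filter 8 calls were lost and 2 gained, and the cause was not tested. Gained were Socs3 with tau in Cgas-/- cells (adjusted p = 0.00635) and Socs1 in tau against HT-DNA (0.0176). Lost were Ifngr2 as above, Ifnar1 with tau in Cgas+/+ cells (0.11), Ifnar2 and Jak1 with tau in Cgas-/- cells, Cish, Ifngr2 and Jak1 between genotypes with vehicle, tau and HT-DNA in that order, and Tyk2 in the difference of tau responses (−0.22). Jak1 with tau in Cgas-/- cells was also lost with RLE scaling and with only the compared groups. The latter fit gained 3 calls: Socs3 with tau in Cgas-/- cells (0.0289), Socs1 in tau against HT-DNA (0.00538) and Ifnar1 in the difference of HT-DNA responses (0.0182). RLE scaling also called Socs1 in tau against HT-DNA (0.0366), and DESeq2 lost Cish between genotypes with vehicle (0.0646).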
